A study of Mus musculus with 6 samples.

Results

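The histone genes of leukaemic mouse B cells were examined with and without gamma-catenin, the junction protein encoded by Jup. They comprised the genes with an older Hist symbol, which lie in 4 clusters of the mouse genome, and the variant genes with an older H2af or H3f symbol. The array's probe-to-gene table gives the current symbols, by which only 1 gene, H3f3a, would have been found. The older names were therefore matched as RefSeq synonyms through the gene IDs. Probe sets with exactly 1 gene symbol were kept, and the one with the highest mean represented a gene. This gave 41 genes of 19938 measured in that way, 31 of the clusters and 10 variants. RefSeq holds 88 genes with such names, pseudogenes included. A further 39 of them were covered only by probe sets that name several genes, which are described apart.

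The study compared 3 samples of Jup-/- donor cells (KO) with 3 samples of Jup+/+ donor cells (WT), all C57BL/6, labelled as biological replicates and hybridised to 1 array each. Cells of Jup-deficient or Jup-expressing fetal livers (CD45.2+) had reconstituted CD45.1+ mice. Marrow of these chimeras received a BCR-ABL1 retrovirus that also carries GFP and was given to irradiated CD45.1+ recipients. In both groups GFP+ B220+ BP-1+ CD45.2+ cells were sorted from bone marrow at day 21, so all samples carry the fusion kinase. The labels do not name the knockout allele or say how many recipients a sample came from. The values are log2 levels on the scale of the RMA method, so a difference of 1 is a factor of 2 on that scale.

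Jup itself was at 7.04, 7.06 and 7.27 in KO arrays, against 8.04, 7.62 and 8.51 in WT arrays, without overlap. The difference, -0.93 (SE 0.20), had an adjusted p of 0.171 in limma. B lineage markers were bright, averaging 12.43 to 12.56 in KO arrays and 12.38 to 12.46 in WT arrays over 11 genes. The myeloid markers were higher in KO in 16 of 18 genes, averaging 8.27 to 8.37 in KO arrays and 7.49 to 7.96 in WT arrays. Of the 18 genes 3 passed as higher in limma (adjusted p under 0.05), against 0.0505% of all probe sets. Markers of mature B cells were higher in 9 of 11 genes, with a median log2 difference of 0.28 and 0 that passed. The array medians lay between 7.53 and 7.61, and 2 arrays correlated at r = 0.991 to 0.996 across probe sets. WT replicate 2 was the one array with low Xist (6.20, against 13.03 to 13.38 in the others) and high Y-linked Uty (10.09, against 4.96 to 5.54), the pattern of male cells, which no KO array showed. Values that this array moves by over 1.5 times are also given without it for the members named here, except where both are within 0.1 of 0 on the log2 scale.

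Histones are the proteins that DNA is wound around. The core histones H2A, H2B, H3 and H4 form the nucleosome, and the linker histone H1 binds where DNA enters and leaves it. The genes of the clusters are transcribed mainly while DNA is replicated, and their messages end in a stem-loop in place of a poly(A) tail. The variant genes lie outside the clusters, are mostly expressed throughout the cell cycle and replace the core histones at particular sites or times. In dividing cells the level of cluster histone messages follows the share of cells in S phase. In bulk samples such as these, fewer cells of a kind and less RNA per cell cannot be told apart.

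The histone genes did not differ detectably between KO and WT cells. No member passed the adjusted threshold of 0.05 in limma in either direction, against 0.119% of all 21789 probe sets (0.0505% higher and 0.0688% lower). The lowest adjusted p among the members was 0.467. With the unadjusted limma p set at under 0.05, 3 of 41 were higher in KO (7.32%, against 4.48% of all probe sets) and 0 were lower (against 4.73%). These 3 were H1f2, H3c15 and H2ax. The counts changed when an array was left out, which also leaves fewer arrays for the test. Without WT replicate 2 they were 0 higher and 1 lower (H2bu1-ps), though the difference of H2ax stayed at 0.25. Without WT replicate 1 they were 4 higher and 6 lower. These counts with an array left out were not set against the share of all probe sets in the same fits. Every KO value lay above every WT value for 3 members (against 5.94% of all probe sets) and below for 1 (against 8.08%). The shares of 3 of 41 are near the background. Of the 41 genes, 24 differed by less than 0.1 and 37 by less than 0.25 on the log2 scale. Among all probe sets 60.7% and 91.0% did.

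The cluster genes and the variants both had medians close to 0. Of the 31 cluster genes 14 were higher and 17 lower in KO. Their log2 differences had a median of -0.012 and ran from -0.21 to 0.45. Of the 10 variants 4 were higher and 6 lower, with a median of -0.0024 and a range from -0.065 to 0.28. Over all probe sets tested, 9641 were higher and 12148 lower, with a median of -0.016. By family, the medians were -0.026 for 5 linker histone genes, -0.012 for 5 H2A genes, -0.030 for 11 H2B genes, 0.093 for 3 H3 genes and -0.0013 for 7 H4 genes. These medians are descriptions of the lists and were not tested.

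**Figure D1:**
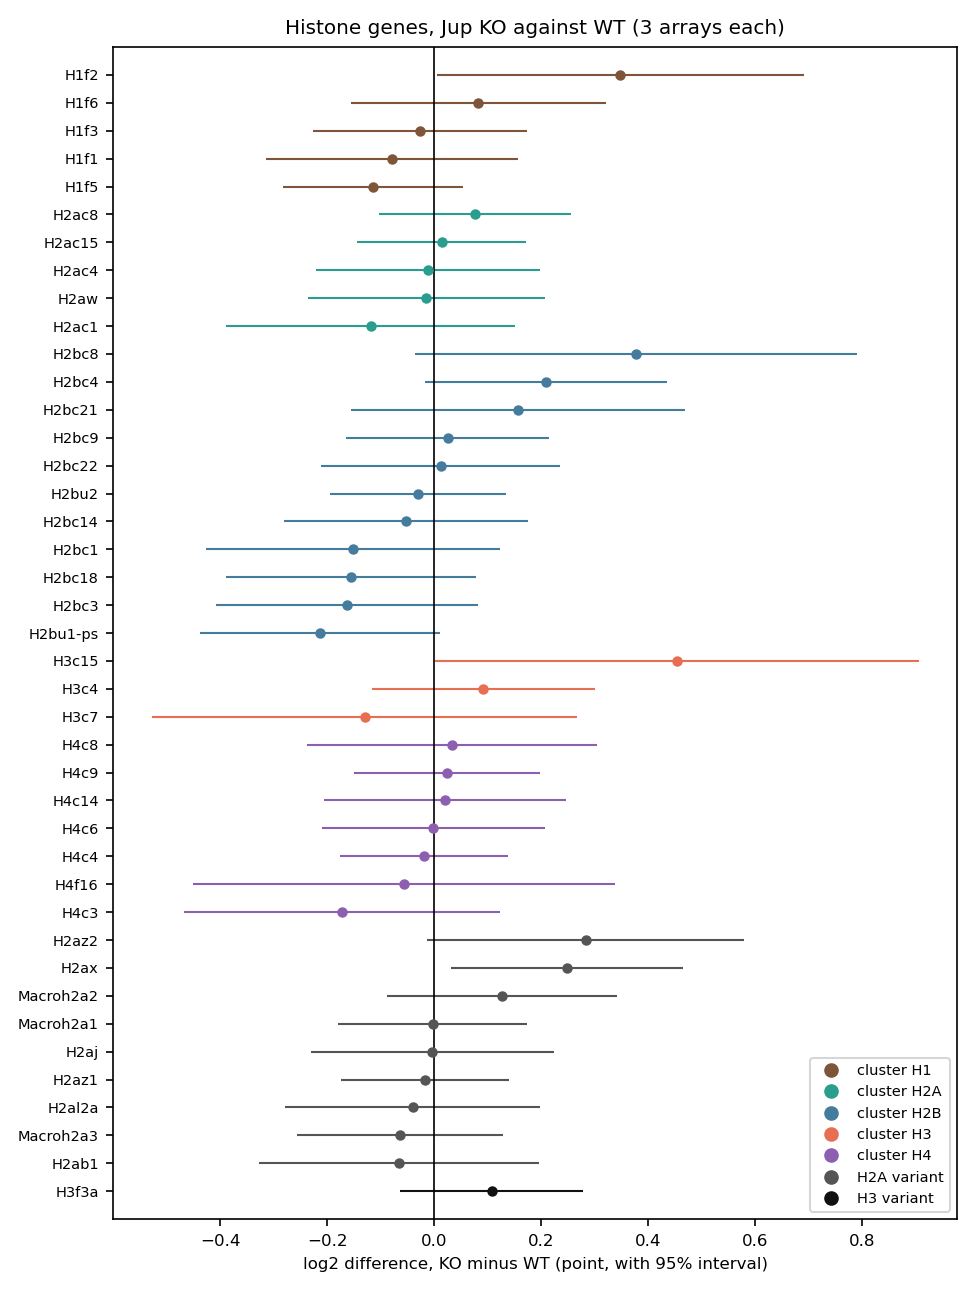
Log2 difference, KO minus WT, of the 41 histone genes, with limma's 95% intervals; rows are genes, ordered by family and within it by difference, and colours mark the family (3 KO and 3 WT arrays). The points lie between -0.21 and 0.45, and the intervals of H1f2, H3c15 and H2ax alone stay above 0, without adjustment for the number of genes.

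The promoters were searched for short motifs, some of them already known from histone promoters. A higher share than among all windows is therefore no independent finding about the families. RefSeq's table of promoter windows (GRCm38.p6) held 34 of the 41 members, 26 cluster genes and 8 variants, and the 250 bases before each start were searched on both strands. The TATA box, searched as TATAAA, occurred in 15 of the 26 cluster windows and in 0 of the 8 variant windows, against 12.4% of all 32851 windows. The CCAAT box, searched as CCAAT, occurred in 21 of 26 cluster windows and 5 of 8 variant windows, against 33.8% of all windows. The octamer ATTTGCAT, the site of POU factors known from H2B promoters, was in 5 of 8 H2B and 4 of 5 H2A windows and in 0 of the windows of the other families, against 1.60% of all windows. The core GGTCCG of the site known from H4 promoters, which the factor HINFP binds, was in 5 of 6 H4 windows, against 6.72% of all windows. It was also in 1 of 8 H2B and 2 of 8 variant windows. Counted with the 50 bases after each start, windows of H2ac1 and H2bc1 overlap by 220 bases and those of H2ac8 and H2bc8 by 279, so these pairs can hold the same match. A match is a description of letters and not a bound site.

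The upstream windows of 6 genes are shown from RefSeq, 5′ to 3′ in the direction of the gene, in lower case with matches of these 4 motifs on either strand in capitals (a CCAAT of the other strand reads ATTGG). H1f2 and H3c15 are the cluster genes with an unadjusted p under 0.05, and H2bc8 is the H2B gene with the largest difference. H2ac15 and H4c4 are the brightest H2A and H4 genes, and H2az1 is a variant gene with nearly equal levels in KO and WT.
H1f2 (GRCm38.p6, chr13:23738557-23738806, plus strand): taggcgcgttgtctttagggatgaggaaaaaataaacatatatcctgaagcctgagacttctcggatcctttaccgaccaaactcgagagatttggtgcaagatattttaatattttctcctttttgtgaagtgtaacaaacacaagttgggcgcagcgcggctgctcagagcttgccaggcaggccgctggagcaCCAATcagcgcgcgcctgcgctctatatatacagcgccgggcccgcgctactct
H3c15 (GRCm38.p6, chr3:96239128-96239377, minus strand): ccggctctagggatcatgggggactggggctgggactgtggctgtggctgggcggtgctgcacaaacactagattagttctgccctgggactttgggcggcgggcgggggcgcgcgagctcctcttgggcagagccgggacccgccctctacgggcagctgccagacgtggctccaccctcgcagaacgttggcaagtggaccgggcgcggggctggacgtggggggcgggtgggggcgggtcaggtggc
H2bc8 (GRCm38.p6, chr13:23571150-23571399, plus strand): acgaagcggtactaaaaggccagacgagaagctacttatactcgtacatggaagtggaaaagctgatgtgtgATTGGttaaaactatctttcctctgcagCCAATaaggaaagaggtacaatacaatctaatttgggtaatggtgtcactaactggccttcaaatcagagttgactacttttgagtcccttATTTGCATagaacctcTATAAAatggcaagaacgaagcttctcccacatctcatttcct
H2ac15 (GRCm38.p6, chr13:21753913-21754162, minus strand): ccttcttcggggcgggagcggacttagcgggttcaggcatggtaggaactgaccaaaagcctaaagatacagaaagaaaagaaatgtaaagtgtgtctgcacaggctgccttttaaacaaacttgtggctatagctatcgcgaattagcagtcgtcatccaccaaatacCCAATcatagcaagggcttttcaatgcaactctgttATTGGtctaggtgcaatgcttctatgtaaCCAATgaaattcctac
H4c4 (GRCm38.p6, chr13:23581318-23581567, plus strand): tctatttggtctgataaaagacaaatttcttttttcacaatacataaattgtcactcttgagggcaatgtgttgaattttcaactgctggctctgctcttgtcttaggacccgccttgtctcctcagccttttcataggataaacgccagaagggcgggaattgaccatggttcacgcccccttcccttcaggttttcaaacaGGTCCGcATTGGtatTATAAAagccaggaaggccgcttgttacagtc
H2az1 (GRCm38.p6, chr3:137864237-137864486, plus strand): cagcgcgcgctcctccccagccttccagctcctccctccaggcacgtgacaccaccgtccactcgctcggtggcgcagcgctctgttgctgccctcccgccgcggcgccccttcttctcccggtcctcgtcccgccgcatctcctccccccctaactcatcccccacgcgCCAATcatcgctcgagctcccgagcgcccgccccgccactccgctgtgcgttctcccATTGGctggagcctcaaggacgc

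H2bc8 holds the octamer, a TATAAA and a pair of CCAAT matches. In H4c4 the H4 site core, a CCAAT of the other strand and the TATA box begin 47, 40 and 32 bases before the start. H1f2 has a CCAAT 54 bases before its start and no match of the other motifs, and H3c15 has no match in this window. H2az1 has CCAAT matches 80 and 23 bases before the start and no TATAAA. The log2 differences of H2bc8 and H4c4, both with TATAAA, were 0.38 and -0.018.

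Linker histones were led by H1f2 (Hist1h1c), which encodes a somatic H1 whose human counterpart is also found as a polyadenylated message in differentiated cells. H1f2 was at 10.45, 10.54 and 10.81 in KO arrays, against 10.41, 9.94 and 10.41 in WT arrays. The groups did not overlap, but KO replicate 1 was only just above WT replicates 1 and 3. The means were 10.60 ± 0.19 in KO and 10.25 ± 0.28 in WT (SD, n = 3 each), a log2 difference of 0.35 (SE 0.15) or 1.27-fold higher, which did not pass (limma adjusted p = 0.538). Without WT replicate 2, the array low in Xist, it was 0.19.

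H1f5 (Hist1h1b), a linker histone of dividing cells, was the lowest of its family by moderated t. It measured 12.72, 12.71 and 12.75 in KO arrays and 12.76, 12.88 and 12.89 in WT arrays. All KO values were below all WT values, by as little as the gap between 12.75 and 12.76. The difference of -0.11 (SE 0.074) did not pass (limma adjusted p = 0.723). H1f1 (Hist1h1a), the brightest linker histone, gave a difference of -0.078 (SE 0.10; -0.14 without WT replicate 2), H1f3 -0.026 and the testis linker histone H1f6 0.083. H1f3 and H1f6 were dim, at means of 6.95 and 6.44.

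In the H2A family the brightest gene had nearly the same level in KO and WT. H2ac15 (Hist1h2ak), a core H2A, measured 13.69, 13.76 and 13.70 in KO arrays and 13.70, 13.69 and 13.72 in WT arrays. The groups overlapped, and the difference of 0.014 had a 95% interval from -0.14 to 0.17. H2ac8 (Hist1h2ae) had the highest moderated t, at 0.077 (SE 0.078), and H2ac1 (Hist1h2aa), known from testis, the lowest, at -0.12 (SE 0.12). Left-out arrays moved both: H2ac8 was at 0.030 without WT replicate 2, and H2ac1 at -0.051 without the same array and -0.25 when WT replicate 1 was dropped. The remaining H2A genes, H2ac4 and H2aw, gave -0.012 and -0.015. A further row lists H2aw together with Trim17, which is not a histone gene. It had a mean of 8.73 and a difference of -0.11 (limma adjusted p = 0.784 over all rows).

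H2B genes, the most numerous members, had differences from -0.21 to 0.38. H2bc4 (Hist1h2bc) had the highest moderated t, with 10.12, 9.93 and 9.81 in KO arrays and 9.76, 9.65 and 9.82 in WT arrays. Its difference was 0.21 (SE 0.099, limma adjusted p = 0.583). KO replicate 3 was level with WT replicate 3, so the groups overlapped, and without KO replicate 1 the difference was 0.13. H2bc8 (Hist1h2bg), named after its values were seen, had the largest difference of the family, with 10.37, 10.19 and 10.52 in KO arrays and 10.17, 9.54 and 10.23 in WT arrays. WT replicate 2 lay apart from the other arrays. The difference was 0.38 (SE 0.18, limma adjusted p = 0.593), and 0.16 without that array.

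The lowest H2B gene was H2bu1-ps (Hist3h2bb), which RefSeq classes as a transcribed pseudogene. Its levels were 9.47, 9.45 and 9.38 in KO arrays and 9.77, 9.45 and 9.71 in WT arrays. WT replicate 2 was within the KO range and the others were above it. The difference of -0.21 (SE 0.098) did not pass (limma adjusted p = 0.575), and without WT replicate 2 it was -0.31. H2bc14 (Hist1h2bm), the brightest H2B gene, gave -0.052 (SE 0.10) at means of 13.05 in KO and 13.10 in WT. The 8 H2B genes not given here with their levels per array lay between -0.16 and 0.16.

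Among H3 genes, H3c15 (Hist2h3c2), which encodes a replication-dependent H3 of the Hist2 cluster, had the largest difference of all members. It measured 8.81, 8.81 and 9.36 in KO arrays and 8.75, 8.14 and 8.72 in WT arrays. KO replicates 1 and 2 stood barely above WT replicates 1 and 3, while KO replicate 3 was high and WT replicate 2 low. The means were 8.99 ± 0.32 in KO and 8.54 ± 0.34 in WT (SD, n = 3 each), a log2 difference of 0.45 (SE 0.20) or 1.37-fold (limma adjusted p = 0.542). With WT replicate 2 left out the difference was 0.26, and with KO replicate 3 left out 0.27. The brightest H3 gene with a probe set of its own was H3c4 (Hist1h3d), at 0.093 (SE 0.091) and 0.047 without WT replicate 2. H3c7 (Hist1h3f) gave -0.13 (SE 0.17) at a mean of 5.68, with WT replicate 3 alone at 6.19 and the other arrays between 5.46 and 5.72. Its value turned to 0.093 without WT replicate 3 and was -0.27 without WT replicate 2.

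H4 genes had differences from -0.17 to 0.034. H4c4 (Hist1h4d), brighter on average than any other member, measured 14.21, 14.22 and 14.20 in KO arrays and 14.19, 14.25 and 14.23 in WT arrays. The groups overlapped, and the 95% interval of the difference was -0.17 to 0.14. H4c4 is also listed in rows of several histone symbols, and whether its own probe set measures it alone was not tested. H4c3 (Hist1h4c) was the lowest of the family, with 11.27, 11.43 and 11.51 in KO arrays and 11.29, 11.71 and 11.72 in WT arrays. WT replicates 2 and 3 were above all KO arrays and WT replicate 1 was among them. Its difference was -0.17 (SE 0.13, limma adjusted p = 0.772), and between -0.31 (without WT replicate 1) and -0.10 (without WT replicate 2 or 3, or KO replicate 1) with an array left out. H4c9 (Hist1h4i) had the highest moderated t, at 0.025 (SE 0.076). H4f16 of the Hist4 cluster, named after its values were seen, gave -0.057, with all KO arrays inside the range of the WT arrays, 11.75 to 12.48. Its sign turned with the array left out, from -0.27 without WT replicate 1 to 0.094 without WT replicate 2.

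**Figure D2:**
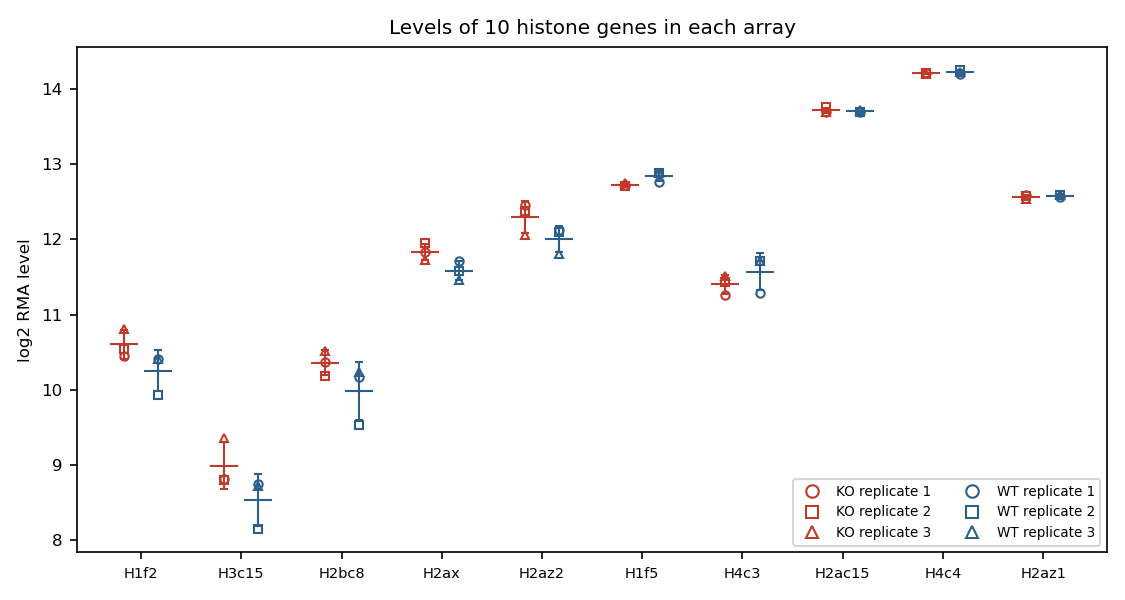
Log2 RMA levels of 10 histone genes in each array; genes on the horizontal axis, KO in red to the left and WT in blue to the right, symbols for the replicate number, bars for the mean and SD (n = 3). H1f2, H3c15 and H2bc8 show WT replicate 2 (square) low, at 9.94, 8.14 and 9.54, while H2ac15, H4c4 and H2az1 lie on top of each other in KO and WT.

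Of the variant histones, H2ax (H2afx) had the lowest p of all members. It encodes the H2A variant that is phosphorylated at DNA breaks, and its gene gives both stem-loop and polyadenylated messages. H2ax measured 11.83, 11.95 and 11.72 in KO arrays and 11.71, 11.58 and 11.46 in WT arrays. The groups did not overlap, with KO replicate 3 next to WT replicate 1. The means were 11.83 ± 0.11 in KO and 11.58 ± 0.12 in WT (SD, n = 3 each), a log2 difference of 0.25 (SE 0.095) or 1.19-fold higher, with an adjusted p of 0.467 in limma. With each array left out in turn it was between 0.19 and 0.31, and 0.25 without WT replicate 2.

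H2A.Z, a variant found at promoters, is encoded by the genes H2az1 and H2az2. H2az1 (H2afz) measured 12.58, 12.58 and 12.54 in KO arrays and 12.56, 12.60 and 12.59 in WT arrays, a difference of -0.017 (SE 0.069). Its other probe set gave -0.0051. The groups overlapped in both. H2az2 (H2afv) measured 12.46, 12.37 and 12.05 in KO arrays and 12.13, 12.10 and 11.81 in WT arrays. In H2az2 KO replicate 3 lay below WT replicates 1 and 2, so the groups overlapped, and the difference of 0.28 (SE 0.13) did not pass (limma adjusted p = 0.575). With each array left out it was between 0.18 and 0.40. Both genes are named after their values were seen, and the difference between them was not tested.

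MacroH2A, a variant with a large extra domain found on the inactive X chromosome and elsewhere, was bright through Macroh2a1 (H2afy). Its levels were 13.02, 13.05 and 13.01 in KO arrays and 13.05, 13.11 and 12.93 in WT arrays, a difference of -0.0019 (SE 0.077) whose sign turned under other scalings and with single arrays left out. Macroh2a3, a transcribed pseudogene, had the lowest moderated t of the variants at -0.064 (SE 0.084). The other H2A variants were H2aj at -0.0029, Macroh2a2 at 0.13 with a mean of only 5.55, and the testis genes H2ab1 at -0.065 (-0.13 without WT replicate 2) and H2al2a at -0.040. H2ab1 has a pair of probe sets with identical values.

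H3.3, the replacement H3 that is deposited outside replication, was poorly covered by its own probe set. H3f3a by itself measured 6.92, 7.01 and 6.97 in KO arrays and 6.93, 6.84 and 6.80 in WT arrays, which is below the array medians. Its difference was 0.11 (SE 0.075, limma adjusted p = 0.745). In 4 further rows that list H3f3a together with the predicted gene Gm12657 the means were 12.36 to 12.67, and the differences 0.060 to 0.13. H3f3b was measured only together with Gm6485, in 2 rows with differences of 0.095 and 0.096. The difference was positive in all 6 rows, 0 passed over all rows of the table (limma, lowest adjusted p = 0.712), and 0 had an unadjusted p under 0.05. Rows that name the same genes do not count as separate evidence.

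Many cluster genes were measured in rows that cannot be split by gene. After leaving out 2 rows with repeated values, 24 distinct rows listed several symbols that were all histone genes, 22 of them with 10 or more symbols. These 22 rows had means from 13.48 to 14.29, near the table's maximum of 14.56, and differed by -0.016 to 0.029. The H3 rows gave a median difference of 0.0066 over 10 rows and the H2B rows 0.0097 over 7. H3c15 is listed in all 10 H3 rows, which differed by -0.0037 to 0.012. H2bc8 and H2bc4 are listed in the H2B rows of 10 or more symbols. Whether the probe sets of H3c15, H2bc8 and H2bc4 measure these genes alone was not tested. The row with the largest difference paired H4c17 with H4c11, at 8.30, 8.20 and 8.57 in KO arrays and 8.07, 7.61 and 8.40 in WT arrays. There WT replicate 2 was again the lowest, and the difference of 0.33 did not pass (limma adjusted p = 0.746 over all rows). Without WT replicate 2 it was 0.12. Whether values this close to the top of the scale, that of H4c4 among them, are compressed was not tested.

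Along the Hist1 cluster on chromosome 13, where 23 members lie, the largest positive differences were those of H2bc8, H1f2 and H2bc4, with genes of smaller or negative difference between them. No gene passed and the spacing was not tested. Between H2bc8 (0.38) and H2bc4 (0.21) stood H3c4 (0.093) and H4c4 (-0.018) among the measured genes, and between H2bc4 and H1f2 (0.35) stood H1f6 (0.083) and H4c3 (-0.17). The 4 members of the Hist2 cluster on chromosome 3 had a median of 0.089, led by H3c15, and the 3 of the Hist3 cluster on chromosome 11 lay between -0.21 and -0.015. H4f16 on chromosome 6, the only member of the Hist4 cluster, gave -0.057.

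**Figure D3:**
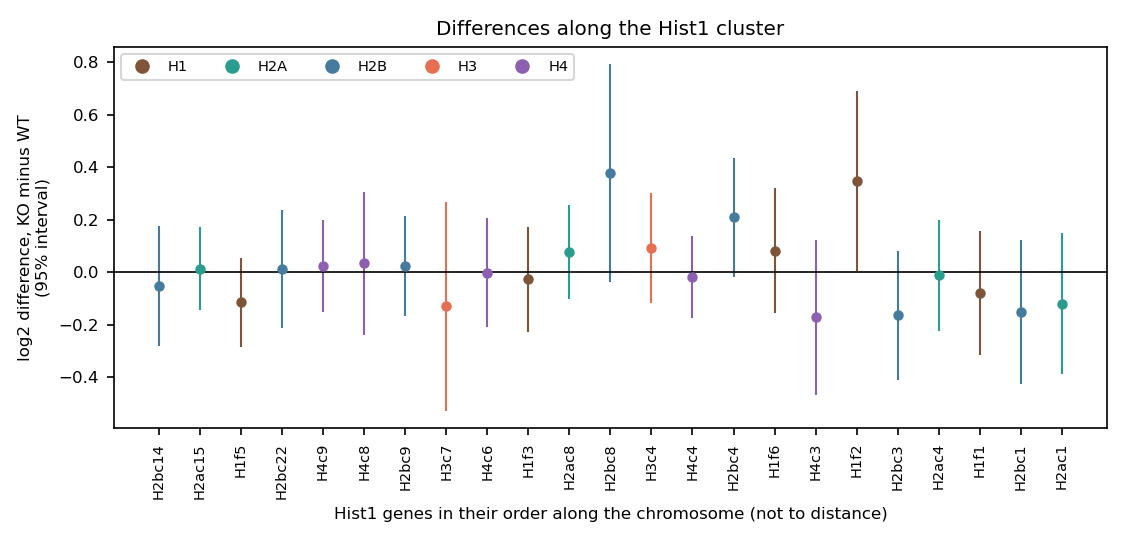
Log2 difference, KO minus WT, with limma's 95% intervals, for the 23 measured Hist1 genes in their order along chromosome 13, evenly spaced; colours mark the family. H2bc8 at 0.38, H2bc4 at 0.21 and H1f2 at 0.35 are separated by genes between -0.17 and 0.093.

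Averaged over the cluster genes, the WT arrays spread more widely than the KO arrays. The mean deviation of the 31 genes, each taken from its WT mean, was -0.017, 0.031 and 0.027 in KO arrays and -0.060, -0.040 and 0.10 in WT arrays. All KO arrays lay inside the WT range. WT replicate 1 and WT replicate 2 each had the lowest of the 6 values for 10 of the 31 cluster genes, and WT replicate 3 had the highest for 10 and the lowest for 0. Lowest and highest arrays were not counted over all probe sets, so whether this is particular to histone genes was not tested. The families did not move together: H4 genes were at -0.17 in WT replicate 1 against 0.088 and 0.086 in WT replicates 2 and 3, whereas the 3 H3 genes were at -0.26 in WT replicate 2. The variants were at 0.061, 0.080 and 0.032 in KO arrays and 0.017, 0.010 and -0.027 in WT arrays, so their KO arrays were all above the WT arrays by a small amount. Only 4 of the 10 variants were higher in KO (H2az2, H2ax, Macroh2a2 and H3f3a), and the median was -0.0024.

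**Figure D4:**
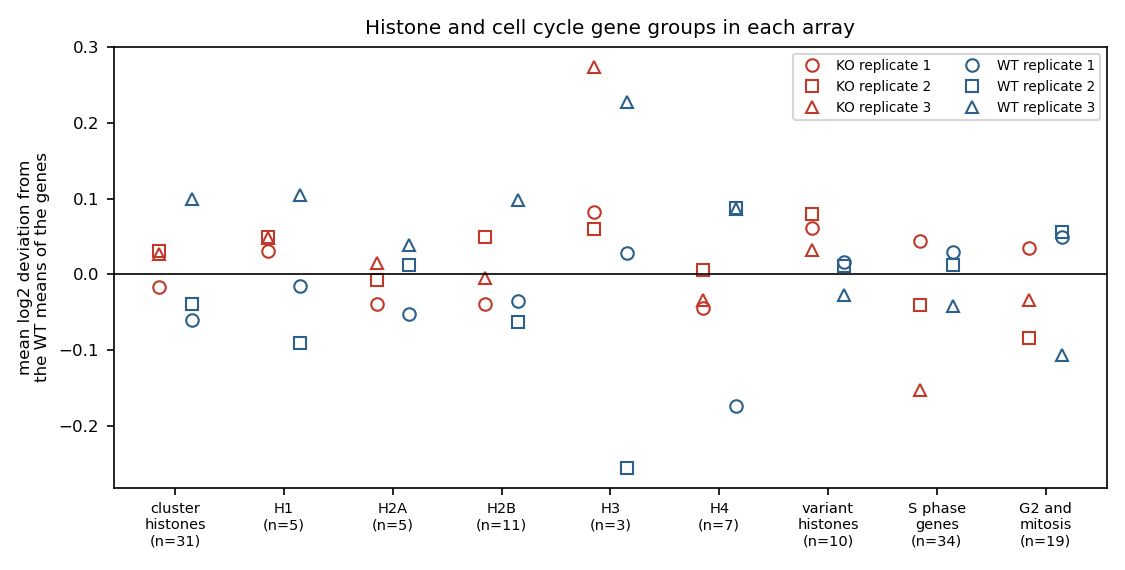
Mean log2 deviation of each gene group from its WT means in each array; groups on the horizontal axis with their number of genes, KO in red to the left and WT in blue to the right, symbols for the replicate number. The cluster histones of KO arrays (-0.017 to 0.031) lie within those of WT arrays (-0.060 to 0.10), and S phase genes run lower in KO replicate 3 (-0.15).

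No gene of the S phase or mitosis lists passed. Of 34 measured S phase genes 11 were higher and 23 lower in KO, with a median of -0.044, where 9641 and 12148 of all probe sets were. None of them passed in limma, and 2 of 34 had an unadjusted p under 0.05, both lower in KO, near the 4.73% of all probe sets. The first, Ccne1, the cyclin that opens S phase, was at 10.39, 10.21 and 10.21 in KO arrays and 10.55, 10.63 and 10.66 in WT arrays, a difference of -0.34 (SE 0.082, limma adjusted p = 0.230). The groups did not overlap. The other, the primase gene Prim1, gave -0.25 (SE 0.084), without overlap. The highest by moderated t were E2f1, an activator of S phase genes, at 0.30 (SE 0.16) and Cdt1, which licenses origins, at 0.14 (SE 0.089). The mean deviation of the list was 0.044, -0.041 and -0.152 in KO arrays and 0.030, 0.012 and -0.041 in WT arrays, so KO replicate 3 was the lowest. In that array the cluster histones were at 0.027. Of 19 G2 and mitosis genes 7 were higher and 12 lower, with a median of -0.022, 0 passed, and 0 had an unadjusted p under 0.05. Without KO replicate 3 the S phase median was 0.0024, and the G2 and mitosis median lay between -0.081 (without WT replicate 3) and 0.0082 (without WT replicate 2).

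Among the factors that make and end histone messages no gene passed either. Of 22 measured genes 5 were higher and 17 lower in KO, with a median of -0.044. In limma 2 of 22 had an unadjusted p under 0.05, both lower, against 4.73% of all probe sets. The direction of the list was not tested. The lowest by moderated t were Cpsf3, the endonuclease that cuts histone pre-mRNA, at -0.23 (SE 0.077, limma adjusted p = 0.404), and the cap-binding gene Ncbp1 at -0.19 (SE 0.074, limma adjusted p = 0.467). Both were lower in every KO array than in any WT array. The highest were Nfya, a subunit of the CCAAT-binding factor, at 0.14 (SE 0.099) and Cpsf2 at 0.062 (SE 0.080).

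Histone chaperones, which carry histones to DNA, had a median of -0.048 over 29 genes, 11 higher and 18 lower, of which 0 passed in limma and 0 had an unadjusted p under 0.05. Chaf1b of the replication-coupled assembly factor was at -0.21 (SE 0.095) and the H3-H4 chaperone Nasp at -0.15 (SE 0.071), the lowest by moderated t. The highest were Ubn2 at 0.15 (SE 0.076) and Atrx at 0.17 (SE 0.11), both linked to H3.3 deposition. Of 6 further linker and centromeric histones, H1f10 was at 8.46, 8.50 and 8.41 in KO arrays and 8.09, 8.33 and 8.21 in WT arrays, without overlap (0.25, SE 0.084, limma adjusted p = 0.406). The centromeric H3 variant gene Cenpa gave -0.091 (SE 0.090). The list means of the myeloid, mature B cell (8.63 to 8.83 in KO arrays and 8.22 to 8.54 in WT arrays) and erythroid markers (8.12 to 8.13 in KO arrays and 8.02 to 8.11 in WT arrays) were higher in every KO array than in any WT array. Of the 8 erythroid genes, though, 4 were higher and 4 lower in KO, with a median of 0.00072. Only Car1 of them passed (0.74, SE 0.088, limma adjusted p = 0.031), and Car2 was at -0.38 (SE 0.16). The part of these marker lists in the positive values of H1f2, H3c15 and H2ax was not tested.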

How the data were processed

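RNA of 3 KO and 3 WT sorted B cell samples was measured on 1-colour Affymetrix whole-transcript arrays after amplification of total RNA, per the labels' protocols. The authors deposited log2 levels (range 2.26 to 14.56). The submitters' processing notes name RMA and Affymetrix Expression Console 1.1. RMA usually aligns the arrays' distributions, which removes any shift common to all genes. Options and annotation are not given in the sources used here.

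Gene names came from the platform annotation. It lists 23410 of the 35556 rows, 1621 of them with several symbols. The 21789 rows with 1 symbol were fitted in R 4.3.3 with lmFit and eBayes of limma 3.58.1 (prior degrees of freedom 4.33), without covariate or filter, with Benjamini-Hochberg adjustment over all of them. Differences are KO minus WT, standard errors are moderated, and intervals are unadjusted 95% intervals. Rows of several symbols were taken from a separate limma fit on all rows of the table. The fit was tested on simulated data, in 20 runs with 200 changed probe sets each and the spreads shuffled among probe sets. At an adjusted p under 0.05 limma recovered 87.2% of differences of 1 and 38.6% of differences of 0.5. Of its calls 4.45% were false. The largest difference of a member was 0.45, and differences below 0.5 were not simulated.

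The members and lists were chosen with earlier results of these data known. Genes named are, per family, those with the highest and lowest moderated t and the highest mean, and those with an unadjusted p under 0.05. RefSeq (GRCm38.p6) gave synonyms, gene order and promoters. The array's build is not named, so no probe coordinates are given. The number of arrays limits the precision. The labels say nothing of separate animals beyond the words biological replicate. The male pattern of WT replicate 2 sets its cells apart from those of the other arrays, but does not separate the others from each other. The p-values therefore measure the spread between these samples. Alternatives covered filters, rows tested, prior, weights, scaling, the replicate number as a block, left-out arrays and the choice of members.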

Additional observations from a re-analysis of the deposited data

How the results depend on the processing

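No histone member passed the adjusted threshold under any of the 13 other settings or with any of the 6 arrays left out (limma). The count of members at an unadjusted p under 0.05, 3 higher and 0 lower, moved. The share of all probe sets under that p was not compared in each setting. The moves are therefore not read as a result about the histone genes. Higher members numbered 1 without dim probe sets, 1 with all rows tested, 5 with array weights and 5 with the replicate block, and 0 to 4 with an array left out (1 without KO replicate 2 and 0 without WT replicate 2). Lower members numbered 1 with a trended and robust prior, 2 with array weights and 1 after a further quantile normalization, and 0 to 6 with an array left out (6 without WT replicate 1, which were H2ac1, H2bc1, H2bc18, H2bc3, H4c3 and H4f16, and 1 without WT replicate 2). The cluster median stayed between -0.033 and 0.026 over all settings and left-out arrays. The variant median was 0.034 with array weights and 0.031 after quantile normalization, and 0.0021 to 0.046 with an array left out.

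Small differences changed sign. With an array left out, H1f1 ranged from -0.15 to 0.011 (positive without KO replicate 3), H2ac15 from -0.0067 to 0.025 (negative without KO replicate 2), H2bc14 from -0.15 to 0.013 and H3c7 from -0.27 to 0.093 (both positive without WT replicate 3), and H4c9 from -0.013 to 0.059 (negative without KO replicate 3, and -0.0033 without WT replicate 1). Macroh2a1 was at 0.043 after quantile normalization, 0.0031 after median centring, and between -0.052 and 0.037 with an array left out (positive in 4 of 6). H4f16, named after its values were seen, ranged from -0.27 to 0.094 (positive when replicate 2 of either group or WT replicate 3 was left out). With an array left out, list medians ranged from -0.074 to 0.013 for chaperones, -0.073 to 0.0024 for S phase genes, -0.081 to 0.0082 for G2 and mitosis genes, -0.086 to 0.056 for further linker and centromeric histones, and -0.086 to -0.035 for histone message factors. The cause was not tested.

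Whether the replicate numbers pair the samples is not known. The sample descriptions share a digit between same-numbered KO and WT samples, whose meaning the labels do not give. Deviations from the group means correlated at 0.10, -0.0043 and 0.27 across probe sets for replicates 1, 2 and 3 of KO and WT, and not every sample correlated best with its own number, so the block was not taken as the main design. With the block the members higher at an unadjusted p under 0.05 were H1f2, H2ax, H2az2, H2bc8 and H3c15, and 0 passed. The share of all probe sets under that p with the block was not compared. Over all probe sets, 26 passed, against 17 to 150 under the other settings and 5 to 82 with an array left out.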
